A study of Homo sapiens with 4 samples.

Results

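The transcripts described here are those of matrix glycoproteins, laminins and proteoglycans. They were chosen as a list of 40 gene names, and each was read from the probe sets annotated to exactly 1 symbol, with 1 probe set per gene, the one with the highest mean intensity over the 4 arrays. Of the 40 names, 39 had such a probe set, out of 19775 genes in all, and LAMA3 was not analysed here. The 39 genes comprise 4 laminin chains, 25 glycoproteins and 10 genes of the proteoglycan group, the last of which includes DSEL, an enzyme of glycosaminoglycan synthesis.

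Laminins are trimers of an alpha, a beta and a gamma chain and form the sheet of the basement membrane on which mammary epithelial cells rest. Nidogens and the heparan sulfate proteoglycan perlecan tie that sheet to collagen IV, while fibronectin, fibrillins, fibulins and small leucine-rich proteoglycans belong to the fibrillar matrix of the stroma. Matricellular proteins such as thrombospondins, tenascin C, periostin and SPARC sit in the matrix and change how cells attach to it. Latent TGF-beta binding proteins store TGF-beta on fibrillin microfibrils.

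The study profiled MCF10A cells, an immortalised but non-tumorigenic human mammary epithelial line, on Affymetrix arrays. The 4 groups were cells infected with a pQCXIH retrovirus that carried wild-type YAP (YAP-WT), YAP with the S94A substitution (YAP-S94A), YAP with changed WW domains (YAP-W1W2), or no insert (vector), with 1 array each. YAP is the transcriptional coactivator that the Hippo pathway restrains; serine 94 lies in its TEAD-binding region and the WW domains bind proline-rich partners. All 4 cultures were infected and grown in DMEM/F12 that contained insulin, EGF, cholera toxin, hydrocortisone and horse serum. The YAP forms were added to the cells' own YAP1, and whether a culture was a pool or a clone is not given in the sources used here. Each group had a single array and so no replicate check: every difference below is one between 2 arrays, without a test or an error, and 2-fold was the size used to count differences.

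Values are linear array intensities, and an intensity at or below 72.9, the 40th percentile over the 4 arrays, was set to that floor before log2 was taken. Where 1 of the 2 arrays lay at the floor, the fold is a bound and is given as "at least". Of the 39 genes, 28 lay above the floor on all 4 arrays, and 2, FBLN2 and EMILIN1, lay at or below it on all. Brighter genes are those whose mean intensity reached the median of all probe sets, 113.6, and 31 of the 39 did. The brightest of 3 YAP1 probe sets did not separate the arrays, at 3462 in YAP-WT, 4208 in YAP-S94A, 4657 in YAP-W1W2 and 4086 in vector, so it does not check the labels; whether it lies within the constructs is not known. CCN2, a known target of YAP with TEAD, read 5523 in YAP-WT, 636 in YAP-S94A, 8075 in YAP-W1W2 and 323 in vector. All 7 basal mammary marker genes on the array, KRT5 and KRT14 among them, lay above the floor on every array. Of 10 fibroblast markers outside the list described here, 6 lay above the floor in YAP-WT, 8 in YAP-S94A, 6 in YAP-W1W2 and 6 in vector, and their summed intensity was 4215 in YAP-WT, 3835 in YAP-S94A, 6371 in YAP-W1W2 and 3644 in vector. TCF21 was at or below the floor on all arrays. The markers did not run alike: COL1A1, a collagen I chain, read 1105 in YAP-WT, 409.9 in YAP-S94A, 719 in YAP-W1W2 and 452 in vector. THY1, a surface glycoprotein, read 33.7 in YAP-WT, 246 in YAP-S94A, 317 in YAP-W1W2 and 241 in vector. FAP, a surface protease, read 1631 in YAP-WT, 1662 in YAP-S94A, 3691 in YAP-W1W2 and 1220.0 in vector, and COL1A2, the other collagen I chain, read 122 in YAP-WT, 190.1 in YAP-S94A, 232 in YAP-W1W2 and 99.3 in vector. The summed intensity of 8 luminal mammary markers, KRT8 and KRT18 among them, was 34619 in YAP-WT, 29565 in YAP-S94A, 59493 in YAP-W1W2 and 13031 in vector. These markers did not run alike either. KRT18, the brightest of them, read 16990 in YAP-WT, 18123 in YAP-S94A, 34605 in YAP-W1W2 and 5609 in vector. GATA3 read 7108 in YAP-WT, 1458 in YAP-S94A, 4723 in YAP-W1W2 and 2679 in vector. PGR lay below the floor on all YAP arrays, and KRT19 on all arrays but YAP-S94A. The summed intensity of 8 endothelial markers, 6 of which were at or below the floor on all arrays, was 994 in YAP-WT, 662 in YAP-S94A, 798 in YAP-W1W2 and 819 in vector, and that of 6 immune markers was 888 in YAP-WT, 797 in YAP-S94A, 556 in YAP-W1W2 and 933 in vector. The part of such cells in the results was not tested.

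Matrix transcripts passed 2-fold in either direction more often than all genes did in each of the 6 comparisons between arrays. The list was chosen with earlier results of these data known. Some shares were close to those of the brighter genes. Higher in YAP-W1W2 than in YAP-WT were 2 genes (5.13%), against 3.91% of the brighter genes. Lower in YAP-W1W2 than in YAP-S94A were 2 genes (5.13%), against 4.45%. The share furthest from that of all genes was the one lower in YAP-S94A than in YAP-WT: 12 of 39 genes (30.8%), against 4.52% of all genes. Over the 4 arrays, 22 of the 39 genes (56.4%) had a highest intensity at least 2-fold above their lowest, compared with 27.2% of all genes. The glycoproteins held 17 of these 22 (68% of the 25 glycoproteins), the proteoglycan group 3 (30% of 10) and the laminins 2 (50% of 4). The share of the proteoglycan group was close to that of all genes. In these bulk cultures, fewer cells that express a gene and less RNA per cell cannot be told apart.

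**Figure D1:**
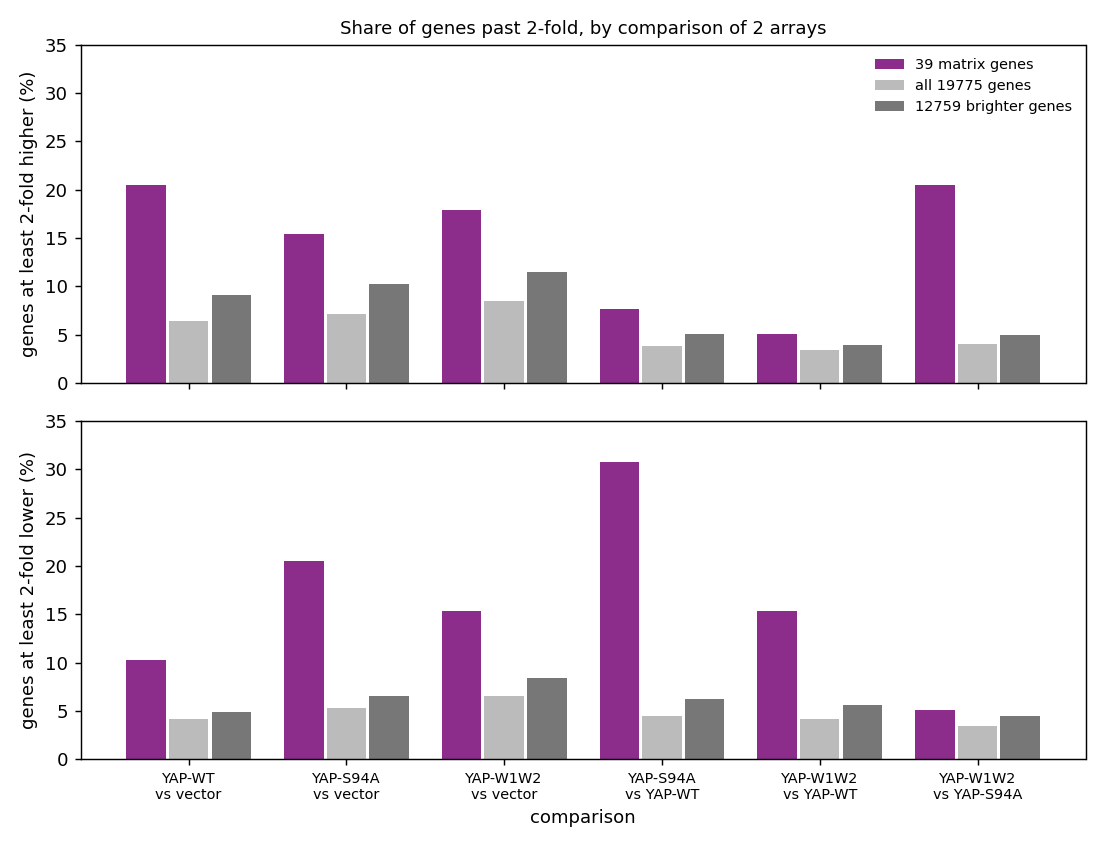
Share of genes at least 2-fold higher (top) or lower (bottom) in each comparison of 2 arrays, in percent, for the 39 matrix genes, all 19775 genes and the 12759 brighter genes. The bar for matrix genes lower in YAP-S94A than in YAP-WT reaches 30.8%.

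Promoter windows show what stands next to the start sites of the genes that differed most, and whether they hold the core of the motif that TEAD factors bind. RefSeq windows of 300 bases, from 250 before to 50 after the start site on GRCh38.p14, were given for 32 of the 39 genes. The letters GGAATG or their reverse complement CATTCC, searched on both strands, occurred in 5 of the 32 (15.6%), compared with 14.0% of all 35116 promoters and 11.9% of the 15384 promoters of genes on the array. The members' share is thus close to that of promoters at large. The 5 were THBS1 (first letter 46 bases before the start site), FBN1 (58 bases before), SPARC (17 bases before), LTBP4 (170 bases before) and THBS2 (103 and 91 bases before), and no matches overlapped. THBS1, FBN1 and SPARC exceeded vector by over 2-fold in YAP-WT, and LTBP4 and THBS2 did not. FN1, FBN2, FBLN5 and LTBP2, which also did, hold no match in this window. The median GC content was 71.3% over the members' windows and 63.0% over those of genes on the array. A match is a string of letters and not a shown binding site. The windows below belong to the 4 glycoproteins with the widest ranges over the arrays and to the laminin and the proteoglycan-group gene with the widest ranges among those with a window, printed 5′ to 3′ along the gene, with matches in capitals.
FBLN5, chr14:91947645-91947944 (minus strand): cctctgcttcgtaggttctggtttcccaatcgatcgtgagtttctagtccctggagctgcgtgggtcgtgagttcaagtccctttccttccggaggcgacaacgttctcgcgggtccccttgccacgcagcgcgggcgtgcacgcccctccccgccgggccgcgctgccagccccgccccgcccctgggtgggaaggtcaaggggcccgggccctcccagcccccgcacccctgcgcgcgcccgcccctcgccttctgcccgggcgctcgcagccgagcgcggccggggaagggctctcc
POSTN, chr13:37598719-37599018 (minus strand): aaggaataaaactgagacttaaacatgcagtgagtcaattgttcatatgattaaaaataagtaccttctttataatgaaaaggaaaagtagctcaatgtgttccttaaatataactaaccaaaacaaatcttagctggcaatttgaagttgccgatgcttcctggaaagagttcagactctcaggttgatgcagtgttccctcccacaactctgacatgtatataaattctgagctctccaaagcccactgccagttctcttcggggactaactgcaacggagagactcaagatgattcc
THBS1, chr15:39580829-39581128 (plus strand): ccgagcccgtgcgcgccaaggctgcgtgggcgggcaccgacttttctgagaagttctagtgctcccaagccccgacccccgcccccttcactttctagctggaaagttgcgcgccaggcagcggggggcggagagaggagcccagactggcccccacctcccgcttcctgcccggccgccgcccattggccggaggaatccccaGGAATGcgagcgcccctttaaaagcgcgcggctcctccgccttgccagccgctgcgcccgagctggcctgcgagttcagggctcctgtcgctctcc
FBN1, chr15:48644921-48645220 (minus strand): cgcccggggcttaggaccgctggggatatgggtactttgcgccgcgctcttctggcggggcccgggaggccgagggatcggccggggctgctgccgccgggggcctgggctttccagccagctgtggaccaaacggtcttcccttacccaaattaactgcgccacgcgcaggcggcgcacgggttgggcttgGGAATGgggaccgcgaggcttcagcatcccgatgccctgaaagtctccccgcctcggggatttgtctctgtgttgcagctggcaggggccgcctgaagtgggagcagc
LAMB1, chr7:108003112-108003411 (minus strand): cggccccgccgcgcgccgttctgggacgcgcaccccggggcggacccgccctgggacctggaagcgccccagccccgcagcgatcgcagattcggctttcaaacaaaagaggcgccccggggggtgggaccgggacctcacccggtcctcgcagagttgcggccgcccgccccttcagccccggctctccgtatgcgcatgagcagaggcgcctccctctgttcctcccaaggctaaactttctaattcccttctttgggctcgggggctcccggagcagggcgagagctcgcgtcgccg
DSEL, chr18:67516671-67516970 (minus strand): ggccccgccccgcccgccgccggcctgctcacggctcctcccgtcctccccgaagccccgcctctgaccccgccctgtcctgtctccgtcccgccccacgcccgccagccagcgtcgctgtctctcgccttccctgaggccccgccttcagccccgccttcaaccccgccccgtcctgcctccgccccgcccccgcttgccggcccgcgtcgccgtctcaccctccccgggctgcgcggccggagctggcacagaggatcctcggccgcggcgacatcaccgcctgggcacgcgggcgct

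Among the laminins, the beta chains LAMB1 and LAMB3 went opposite ways in the YAP arrays relative to vector, and the alpha and gamma chains stayed within 2-fold. LAMB3, a chain of the epithelial laminin that anchors hemidesmosomes, read 14577 in YAP-WT, 24879 in YAP-S94A, 21569.9 in YAP-W1W2 and 8899 in vector. All 3 YAP arrays exceeded vector, and the YAP-S94A and YAP-W1W2 arrays did so by 2.80-fold and 2.42-fold. LAMB1, the beta chain that pairs with LAMC1 in many basement membranes, read 1323 in YAP-WT, 1737 in YAP-S94A, 888 in YAP-W1W2 and 3349.5 in vector. It was 2.53-fold lower in YAP-WT and 3.77-fold lower in YAP-W1W2 than in vector, and in YAP-S94A its log2 fold was −0.95. A second LAMB1 probe set gave log2 folds of −1.15 for YAP-WT, −1.07 for YAP-S94A and −1.29 for YAP-W1W2. LAMC1, a gamma chain, read 6282 in YAP-WT, 3514 in YAP-S94A, 5553 in YAP-W1W2 and 3824 in vector. LAMA5, an alpha chain of basement membrane laminins, read 3386 in YAP-WT, 2473 in YAP-S94A, 1945 in YAP-W1W2 and 2436 in vector. By these probe sets both were highest in YAP-WT, with ranges over the 4 arrays of 1.79-fold for LAMC1 and 1.74-fold for LAMA5. A second LAMC1 probe set was highest in YAP-W1W2, at 4231 against 3663 in YAP-WT.

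**Figure D2:**
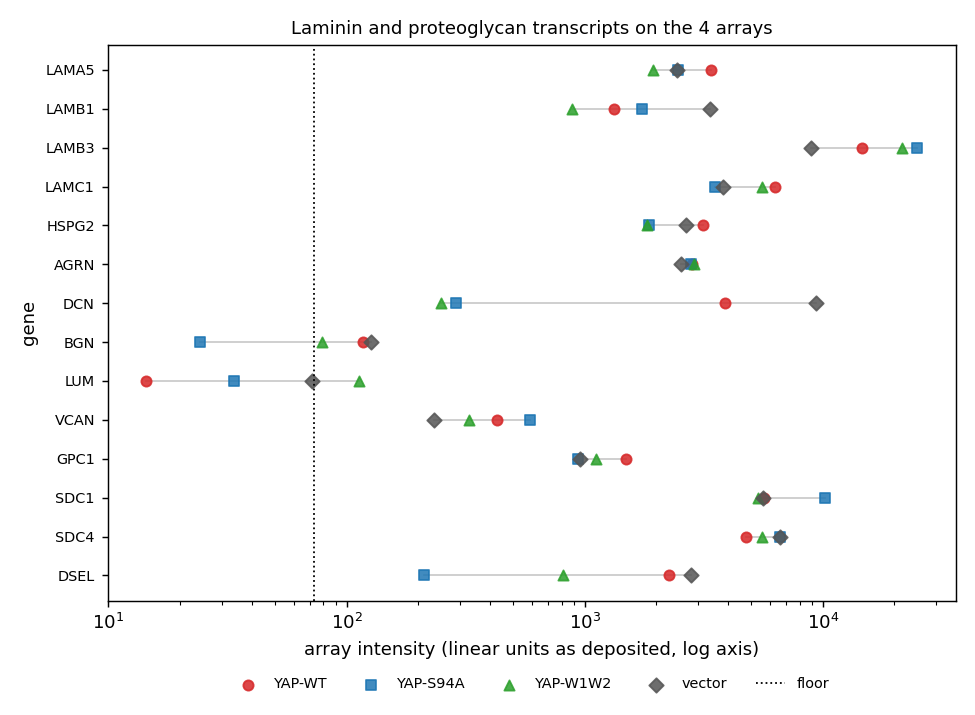
Array intensity of the 4 laminin genes and the 10 genes of the proteoglycan group on the 4 arrays (horizontal log axis, 1 marker per array, dotted line at the floor of 72.9). DCN spans 248 to 9344 and AGRN 2529 to 2878.

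FN1, FBN1, FBN2 and MFAP5, of fibronectin and the fibrillin microfibrils, exceeded vector by at least 2-fold in YAP-WT and were at least 2-fold lower in YAP-S94A relative to YAP-WT. For FN1, FBN2 and MFAP5 the YAP-W1W2 array lay nearer to YAP-WT than to YAP-S94A. FN1, the fibronectin that cells assemble into fibrils through integrins, read 18859 in YAP-WT, 3483 in YAP-S94A, 16527 in YAP-W1W2 and 7419 in vector. The YAP-S94A array was the lowest of the 4, below vector too. Of its 7 probe sets, the 4 with the highest intensities gave log2 differences of −2.23 to −2.44 for YAP-S94A against YAP-WT. FBN1, the main fibrillin of microfibrils, read 4198 in YAP-WT, 463 in YAP-S94A, 1857 in YAP-W1W2 and 1454 in vector. It had the same ends as FN1, highest in YAP-WT and lowest in YAP-S94A, but YAP-W1W2 stayed near vector with a log2 fold of 0.35. FBN2, the fibrillin of developing tissue, read 14285 in YAP-WT, 4608 in YAP-S94A, 16630.0 in YAP-W1W2 and 2476 in vector. Here vector was the lowest array, YAP-S94A was 0.90 above it on the log2 scale, and YAP-W1W2 was the highest. Its other 2 probe sets, at far lower intensity, gave 0.44 and 2.00 (log2) for YAP-WT against vector and −0.28 and −1.89 for YAP-S94A against YAP-WT, and the second of these was highest in YAP-WT. MFAP5, a microfibril-associated glycoprotein, read 14532 in YAP-WT, 2424 in YAP-S94A, 9651 in YAP-W1W2 and 3954 in vector. Its 3 probe sets put YAP-S94A below vector by log2 values of −0.71 to −0.95 and YAP-WT above by 1.88 to 2.55. MFAP2, the other microfibril-associated glycoprotein, was dim at 112 in YAP-WT, 34.4 in YAP-S94A, 86.4 in YAP-W1W2 and 78.4 in vector, and did not pass 2-fold in any comparison.

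The fibulins divided by size of change. FBLN5, which binds elastin and integrins during elastic fibre assembly, read 839 in YAP-WT, 16.4 in YAP-S94A, 1976 in YAP-W1W2 and 35.3 in vector. Vector and YAP-S94A were below the floor, and YAP-WT and YAP-W1W2 were at least 11.5-fold and at least 27.1-fold above vector. The gene rested on 1 probe set. EFEMP1, a fibulin family member, read 20169 in YAP-WT, 8284 in YAP-S94A, 10854 in YAP-W1W2 and 14233 in vector. FBLN1, which binds fibronectin and laminin, read 6209 in YAP-WT, 2744 in YAP-S94A, 4583 in YAP-W1W2 and 4829 in vector. By these probe sets both were highest in YAP-WT and lowest in YAP-S94A, at 2.43-fold and 2.26-fold lower in YAP-S94A than in YAP-WT. Of the 5 FBLN1 probe sets, 2 gave −1.39 and −1.18 (log2) there, and the other 3 gave −0.26, −0.21 and −0.05. The first of these 3, at 1877 to 3888, was highest in vector and lowest in YAP-W1W2, with −0.54 (log2) for YAP-WT against vector. EFEMP2, needed for elastic fibre formation, read 266 in YAP-WT, 245 in YAP-S94A, 199.8 in YAP-W1W2 and 144 in vector and passed 2-fold nowhere. FBLN2 ran from 11.5 to 46.6 and EMILIN1, an elastic fibre glycoprotein, from 8.8 to 15.9, all at or below the floor.

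**Figure D3:**
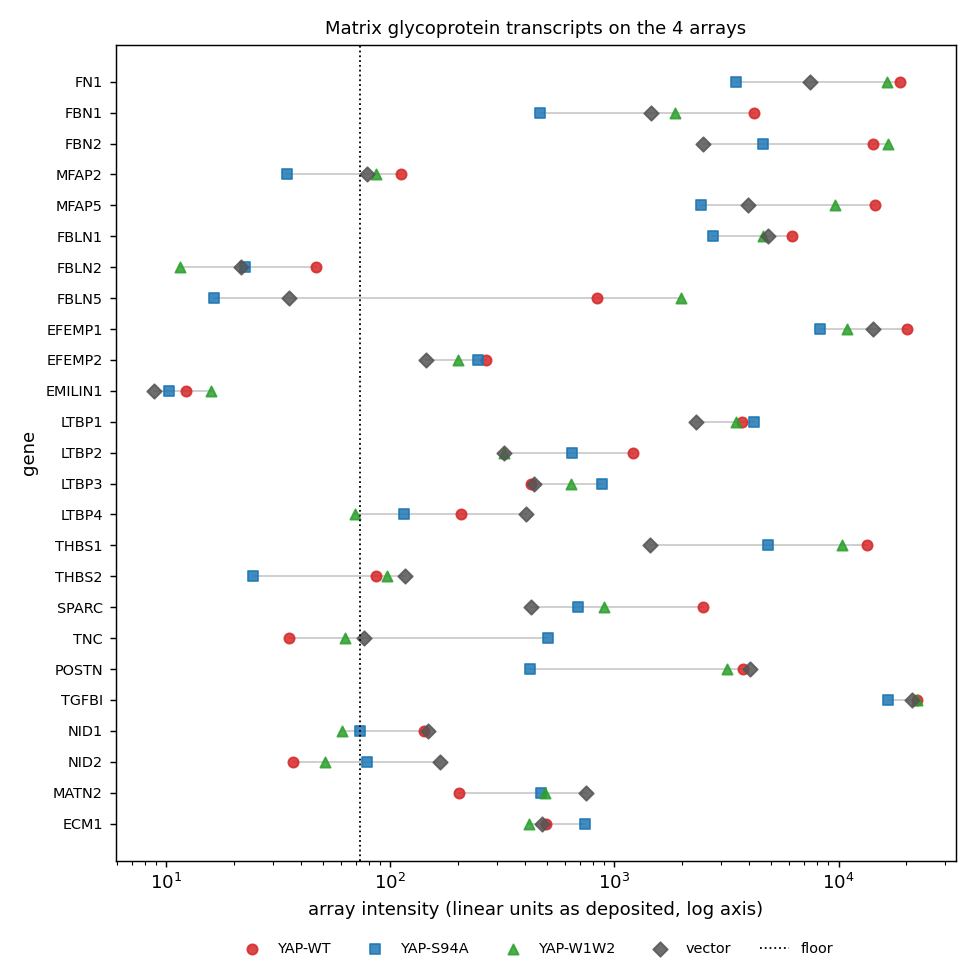
Array intensity of the 25 glycoprotein genes on the 4 arrays (horizontal log axis, 1 marker per array, dotted line at the floor of 72.9). YAP-S94A (squares) lies at the low end for FN1, FBN1, MFAP5, FBLN1, EFEMP1 and POSTN and at the high end for TNC.

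The 4 latent TGF-beta binding proteins each had a pattern of their own. LTBP2, which binds microfibrils without holding latent TGF-beta, read 1214 in YAP-WT, 645 in YAP-S94A, 322 in YAP-W1W2 and 322 in vector. YAP-W1W2 and vector were level and YAP-WT stood 3.77-fold above vector; a second probe set gave 0.72 (log2) for YAP-W1W2 against vector. LTBP4, which is also needed for elastic fibres, read 207 in YAP-WT, 114 in YAP-S94A, 69.6 in YAP-W1W2 and 403 in vector. All YAP arrays were below vector for it, by 3.52-fold in YAP-S94A and at least 5.53-fold in YAP-W1W2, while 2 dimmer probe sets put YAP-WT above vector by 0.95 and 0.88 (log2). LTBP1, a carrier of latent TGF-beta, read 3695 in YAP-WT, 4174 in YAP-S94A, 3483 in YAP-W1W2 and 2300.2 in vector. It was lowest in vector, and no difference of this probe set passed 2-fold; its dimmer probe set gave log2 folds over vector of 1.59 in YAP-WT and 1.61 in YAP-S94A. LTBP3, another carrier, read 425 in YAP-WT, 882 in YAP-S94A, 638 in YAP-W1W2 and 438 in vector, with YAP-S94A highest and just past 2-fold over vector (2.02-fold) and over YAP-WT (2.08-fold). Its other 2 probe sets gave 0.13 and −1.03 (log2) for YAP-S94A against vector.

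Among matricellular genes, SPARC was highest in YAP-WT, THBS1 was high in both YAP-WT and YAP-W1W2, TNC was highest in YAP-S94A, and POSTN was lowest in YAP-S94A. THBS1, a thrombospondin that binds CD36 and CD47 and can activate latent TGF-beta, read 13369 in YAP-WT, 4827 in YAP-S94A, 10344 in YAP-W1W2 and 1446 in vector. Every YAP array exceeded vector by more than 2-fold, and YAP-S94A was the lowest of the 3. Of its 6 brighter probe sets, 1 at low intensity put YAP-W1W2 below vector (−0.35, log2), while the other 5 gave 2.84 to 4.14. YAP-WT was the highest array in 3 of the 6 and YAP-W1W2 in the other 3, by log2 differences of 0.01 to 0.21. SPARC, a collagen-binding protein, read 2486 in YAP-WT, 686 in YAP-S94A, 897 in YAP-W1W2 and 425 in vector. YAP-WT stood apart from the other 3 arrays, above YAP-W1W2 as well as YAP-S94A. For YAP-W1W2 against vector a second SPARC probe set gave 0.66 (log2), short of 2-fold. TNC, tenascin C, which loosens adhesion to fibronectin, read 35.3 in YAP-WT, 504 in YAP-S94A, 62.8 in YAP-W1W2 and 76.5 in vector. With the floor of 72.9 it passed 2-fold where YAP-S94A was 1 of the 2 arrays, and not otherwise; without that floor YAP-WT was −1.12 (log2) against vector, among dim values. The other 2 of its 3 probe sets lay below the floor on every array. POSTN, periostin, read 3736 in YAP-WT, 419 in YAP-S94A, 3176 in YAP-W1W2 and 4014 in vector. Here YAP-S94A stood apart on the low side, 9.59-fold below vector, and a second probe set gave −3.80 (log2). That second probe set also put YAP-W1W2 below vector by more than 2-fold (−1.08, log2). TGFBI, which binds collagens and integrins, ran only from 16564 in YAP-S94A to 22465 in YAP-W1W2. THBS2 was dim, at 86.0 in YAP-WT, 24.4 in YAP-S94A, 96.5 in YAP-W1W2 and 117 in vector.

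The nidogens, which link laminin to collagen IV, were near the floor. NID2 read 36.9 in YAP-WT, 79.0 in YAP-S94A, 50.9 in YAP-W1W2 and 166 in vector, and vector was the highest array. NID1 read 142 in YAP-WT, 73.2 in YAP-S94A, 60.8 in YAP-W1W2 and 148 in vector, with YAP-S94A just above the floor and YAP-W1W2 below it. A dimmer NID1 probe set read 225 in vector and lay below the floor on the 3 YAP arrays. MATN2, a matrilin that joins filaments of the matrix, read 202 in YAP-WT, 472 in YAP-S94A, 492 in YAP-W1W2 and 748 in vector. Vector was again highest, and YAP-WT was lowest, 3.71-fold below it. ECM1, a secreted glycoprotein of skin and other epithelia that binds perlecan, read 496 in YAP-WT, 739 in YAP-S94A, 417 in YAP-W1W2 and 475 in vector and did not pass 2-fold.

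Among proteoglycans, decorin had the widest range of the 39 genes and the cell-surface forms had ranges under 2-fold. DCN, the small leucine-rich proteoglycan that binds collagen fibrils and TGF-beta, read 3884 in YAP-WT, 288 in YAP-S94A, 248 in YAP-W1W2 and 9344 in vector. All 3 YAP arrays were below vector, YAP-WT by 2.41-fold, YAP-S94A by 32.4-fold and YAP-W1W2 by 37.6-fold. DCN had 7 probe sets; the 4 that reached the brighter range gave log2 folds of −1.27 to −1.86 for YAP-WT and of −3.57 (a bound) to −6.21 for YAP-S94A. DSEL, which resembles the epimerase that makes dermatan sulfate, the sugar chain decorin can carry, read 2252 in YAP-WT, 212 in YAP-S94A, 815 in YAP-W1W2 and 2807 in vector. YAP-S94A was lowest and YAP-W1W2 second lowest. For YAP-WT against vector its brightest probe set gave −0.32 (log2) and the other 2 gave 0.67 and 0.79. The related small proteoglycans were dim. BGN, biglycan, read 118 in YAP-WT, 24.3 in YAP-S94A, 78.7 in YAP-W1W2 and 127 in vector, and LUM, lumican, read 14.4 in YAP-WT, 33.8 in YAP-S94A, 113 in YAP-W1W2 and 71.3 in vector.

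VCAN, versican, a large chondroitin sulfate proteoglycan, read 427 in YAP-WT, 590.1 in YAP-S94A, 328 in YAP-W1W2 and 232 in vector. YAP-S94A was highest and vector lowest, 2.54-fold apart, and the 5 probe sets gave log2 folds of 1.08 to 1.48 for this pair, with vector at the floor in 2 of them. The heparan sulfate proteoglycans of the basement membrane changed less. HSPG2, perlecan, read 3138 in YAP-WT, 1862 in YAP-S94A, 1819 in YAP-W1W2 and 2668 in vector; a dimmer probe set of it gave log2 folds over vector of 1.37 for YAP-WT, 1.29 for YAP-S94A and 1.65 for YAP-W1W2, opposite in sign to the brightest 1 in both mutants. AGRN, agrin, read 2831 in YAP-WT, 2786 in YAP-S94A, 2878 in YAP-W1W2 and 2529 in vector, a range of 1.14-fold, while its other 3 probe sets gave log2 folds over vector of 0.65 to 0.70, of at least 1.71 to 1.98, and, with all YAP arrays at the floor, of −0.78 or lower. At the cell surface, SDC1, the main syndecan of epithelia, read 5690.1 in YAP-WT, 10222 in YAP-S94A, 5334 in YAP-W1W2 and 5610.3 in vector, with YAP-S94A alone high at 1.82-fold over vector. SDC4, a syndecan of focal adhesions, read 4765 in YAP-WT, 6624 in YAP-S94A, 5585 in YAP-W1W2 and 6646 in vector. GPC1, a glypican held by a lipid anchor, read 1498 in YAP-WT, 937 in YAP-S94A, 1115 in YAP-W1W2 and 960.5 in vector. Neither SDC4 nor GPC1 passed 2-fold between any 2 arrays.

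**Figure D4:**
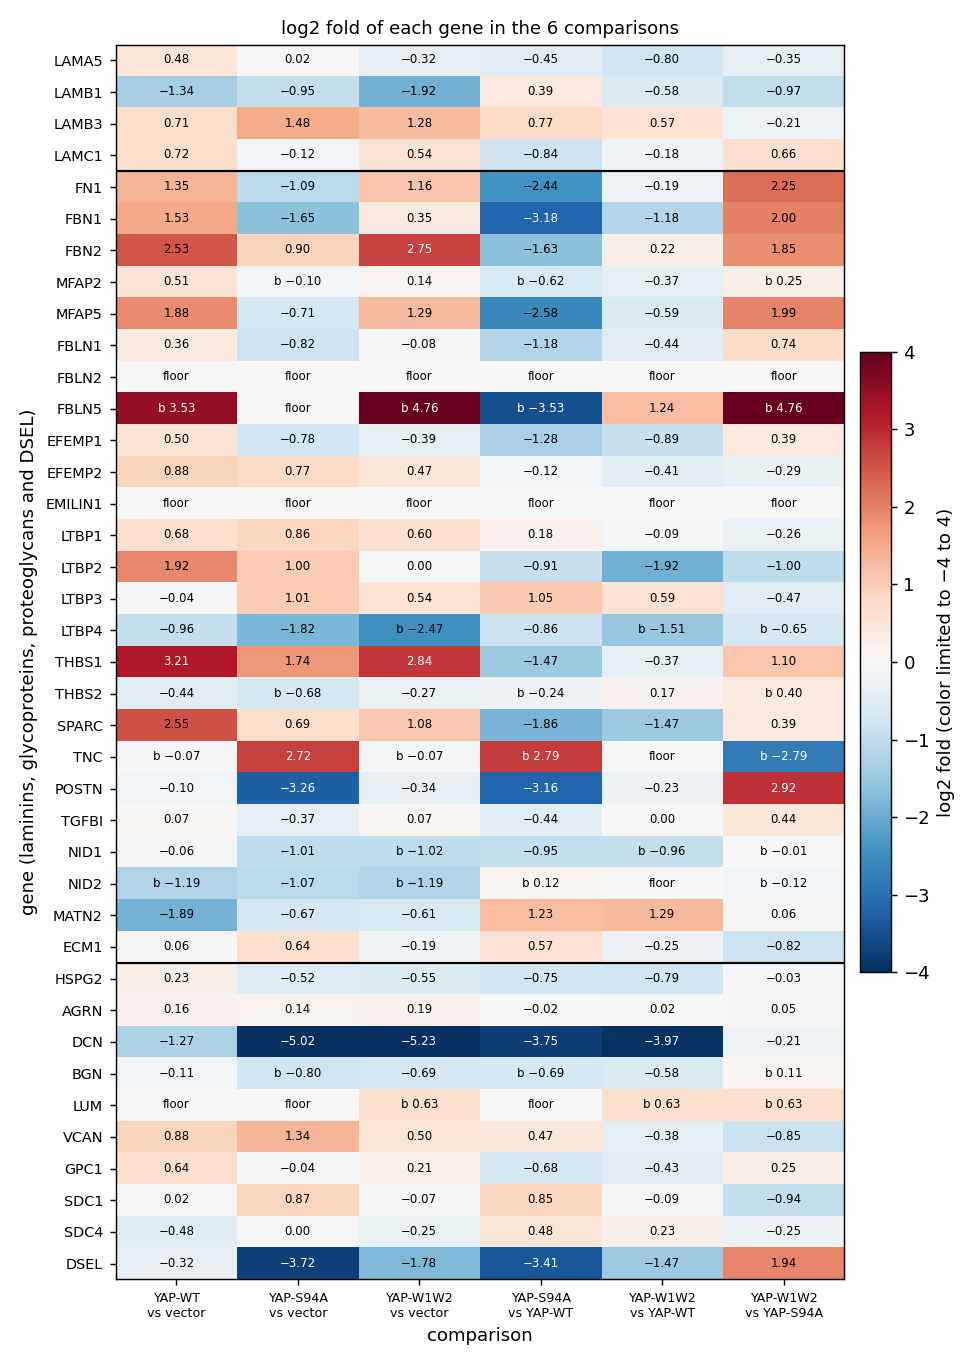
log2 fold of each of the 39 genes (rows; laminins, glycoproteins and the proteoglycan group divided by lines) in the 6 comparisons (columns), with the first-named array over the second. A leading b marks a lower bound in size, and floor marks both arrays at or below the floor.

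YAP-WT was compared with vector to see which matrix transcripts differ when YAP is expressed. Glycoproteins made up all 8 genes that were at least 2-fold higher: FBLN5 (at least 11.5-fold), THBS1 (9.24-fold), SPARC (5.85-fold), FBN2 (5.77-fold), LTBP2 (3.77-fold), MFAP5 (3.68-fold), FBN1 (2.89-fold) and FN1 (2.54-fold). Lower by at least 2-fold were 4: MATN2 (3.71-fold), LAMB1 (2.53-fold), DCN (2.41-fold) and NID2 (at least 2.28-fold). Among all 19775 genes, 6.42% were higher by this size and 4.22% were lower; among the 12759 brighter genes the shares were 9.1% and 4.95%. The shares of the 39 genes, 20.5% and 10.3%, were thus above both. The median log2 fold was 0.16 over the 39 genes, 0.36 over the 25 glycoproteins, 0.59 over the 4 laminins and 0.01 over the proteoglycan group, compared with 0 over all genes and 0.14 over the brighter ones.

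YAP-S94A was compared with vector to see which differ with a YAP form whose TEAD-binding region is changed. The glycoproteins moved both ways and the decorin and DSEL transcripts were among the lowest. The 6 genes at least 2-fold higher were TNC (6.58-fold), THBS1 (3.34-fold), LAMB3 (2.80-fold), VCAN (2.54-fold), LTBP3 (2.02-fold) and LTBP2 (2.005-fold). The 8 lower ones were DCN (32.4-fold), DSEL (13.2-fold), POSTN (9.59-fold), LTBP4 (3.52-fold), FBN1 (3.14-fold), FN1 (2.13-fold), NID2 (2.10-fold) and NID1 (2.02-fold). Over all 19775 genes, 7.18% were higher by this size and 5.3% were lower; among the 12759 brighter genes the shares were 10.3% and 6.53%. The corresponding shares of the 39 genes were 15.4% and 20.5%, and their median was −0.04 (log2); the brighter genes had a median of 0.14.

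In the comparison of YAP-W1W2 with vector, which asks about YAP with changed WW domains, 7 genes were at least 2-fold higher: FBLN5 (at least 27.1-fold), THBS1 (7.15-fold), FBN2 (6.72-fold), MFAP5 (2.44-fold), LAMB3 (2.42-fold), FN1 (2.23-fold) and SPARC (2.11-fold). The 6 lower genes were DCN (37.6-fold), LTBP4 (at least 5.53-fold), LAMB1 (3.77-fold), DSEL (3.44-fold), NID2 (at least 2.28-fold) and NID1 (at least 2.02-fold). For all 19775 genes, 8.47% were higher by this size and 6.51% were lower; among the 12759 brighter genes the shares were 11.4% and 8.4%. The 39 genes stood at 17.9% and 15.4%, and their median log2 fold was 0, against 0.10 over the brighter genes. These 3 comparisons share the vector array, so a value peculiar to that array enters all of them.

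The direct comparison of YAP-S94A with YAP-WT, which leaves out the vector array, was mostly to the low side. Of the 39 genes 12 were at least 2-fold lower in YAP-S94A, 10 of them glycoproteins. They were DCN (13.5-fold), FBLN5 (at least 11.5-fold), DSEL (10.6-fold), FBN1 (9.06-fold), POSTN (8.92-fold), MFAP5 (5.99-fold), FN1 (5.41-fold), SPARC (3.63-fold), FBN2 (3.10-fold), THBS1 (2.77-fold), EFEMP1 (2.43-fold) and FBLN1 (2.26-fold). The 3 higher ones were TNC (at least 6.91-fold), MATN2 (2.34-fold) and LTBP3 (2.08-fold), and no laminin passed 2-fold. Of all 19775 genes, 3.84% were higher by this size and 4.52% were lower; among the 12759 brighter genes the shares were 5.06% and 6.27%. The median log2 difference was −0.62 over the 39 genes, −0.86 over the glycoproteins and −0.03 over the laminins, compared with 0 over all genes and 0.01 over the brighter ones.

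YAP-W1W2 differed from YAP-WT in fewer matrix genes. At least 2-fold lower were 6: DCN (15.6-fold), LTBP2 (3.77-fold), LTBP4 (at least 2.84-fold), SPARC (2.77-fold), DSEL (2.76-fold) and FBN1 (2.26-fold). MATN2 (2.44-fold) and FBLN5 (2.35-fold) were the 2 higher ones. These calls rest on the brightest probe set of each gene. Dimmer EFEMP1 probe sets gave −1.72 and −1.06 (log2), past 2-fold lower. For MFAP5 a dimmer probe set gave −1.07 (log2), and another was just past 2-fold lower. FN1, THBS1 and VCAN also each had a dimmer probe set past 2-fold lower. For LTBP2 the other probe set gave −0.74 (log2), short of 2-fold. Across all 19775 genes, 3.43% were higher by this size and 4.14% were lower; among the 12759 brighter genes the shares were 3.91% and 5.59%. The 39 genes stood at 5.13% and 15.4%, with a median of −0.25, against −0.04 over the brighter genes.

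Between the mutants, fibronectin, both fibrillins and FBLN5 were among the genes higher in YAP-W1W2 than in YAP-S94A. By their brightest probe sets FBLN1, EFEMP1, EFEMP2 and DCN stayed within 2-fold. For FBLN1 that probe set gave 0.74 (log2), another gave 1.06, past 2-fold, and the rest were negative. The 8 genes at least 2-fold higher were FBLN5 (at least 27.1-fold), POSTN (7.59-fold), FN1 (4.75-fold), FBN1 (4.01-fold), MFAP5 (3.98-fold), DSEL (3.84-fold), FBN2 (3.61-fold) and THBS1 (2.14-fold). The 2 lower ones were TNC (at least 6.91-fold) and LTBP2 (2.006-fold). A second LTBP2 probe set gave −0.24 (log2), well short of 2-fold. Among all 19775 genes, 4.08% were higher by this size and 3.45% were lower; among the 12759 brighter genes the shares were 4.98% and 4.45%. The 39 genes stood at 20.5% and 5.13%, with a median of 0.05, against −0.07 over the brighter genes. The log2 difference of DCN was −0.21.

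Counted by the array that held the extreme, 8 of the 39 genes with a range of at least 2-fold were highest in YAP-WT (20.5%), 4 in YAP-S94A (10.3%), 2 in YAP-W1W2 (5.13%) and 8 in vector (20.5%). Over all genes these shares were 5.77%, 6.94%, 7.03% and 7.5%. All 8 genes highest in YAP-WT were glycoproteins, THBS1 among them by its brightest probe set. The lowest intensity fell in YAP-WT for 4 genes (10.3%), in YAP-S94A for 8 (20.5%), in YAP-W1W2 for 5 (12.8%) and in vector for 5 (12.8%). The shares over all genes were 4.61%, 5.51%, 6.53% and 10.6%, so that of vector was close to all genes. The lowest array was picked from intensities before the floor was set. For TNC and NID2, YAP-WT and YAP-W1W2 both lay below the floor, and for FBLN5, YAP-S94A and vector did. Which of these arrays was lowest thus rests on values below the floor. LTBP2 was counted as lowest in YAP-W1W2 at 321.7, level with 321.9 in vector, and its second probe set was lowest in vector. NID1 was counted as highest in vector at 147.5, close to 141.7 in YAP-WT. Of the 8 genes lowest in YAP-S94A, 7 were glycoproteins and 1 was DSEL.

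Other genes of the same pathways, from lists chosen with earlier results of these data known, are given for comparison, and their counts are to be read against the shares of all genes past 2-fold, which were 6.42% higher and 4.22% lower in YAP-WT, 7.18% and 5.3% in YAP-S94A, and 8.47% and 6.51% in YAP-W1W2, each against vector. Among 12 other laminin chains and laminin receptors on the array, 2 were higher by 2-fold or more and 0 lower for YAP-WT against vector, 4 and 0 in YAP-S94A, and 2 and 0 in YAP-W1W2, or 16.7%, 33.3% and 16.7% of the 12 higher. The netrin NTN4, a laminin-related protein, was 2.47-fold higher in YAP-WT, the laminin-binding integrin subunit ITGA3 2.66-fold higher in YAP-S94A, and the alpha chain LAMA1 3.99-fold higher in YAP-W1W2, all against vector. Of 37 other matrix glycoproteins, 6 were higher and 2 lower for YAP-WT against vector, 4 and 3 in YAP-S94A, and 6 and 5 in YAP-W1W2. As shares of the 37, these were 16.2% higher and 5.41% lower in YAP-WT, 10.8% and 8.11% in YAP-S94A, and 16.2% and 13.5% in YAP-W1W2. The matrilin MATN3 was at least 5.74-fold higher in YAP-WT and the matrix peroxidase PXDN 3.66-fold higher, and in YAP-W1W2 PXDN was 4.35-fold higher. For YAP-S94A against YAP-WT, 4 of these 37 were higher (10.8%, all genes 3.84%) and 5 lower (13.5%, all genes 4.52%), with MATN3 4.78-fold lower.

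Of 26 other proteoglycans, SRGN, the serglycin of secretory granules, had the widest contrast, at 4609.9 in YAP-WT, 99.5 in YAP-S94A, 3144 in YAP-W1W2 and 632 in vector. In all, 2 were higher and 2 lower for YAP-WT against vector, 0 and 6 in YAP-S94A, and 2 and 3 in YAP-W1W2. As shares of the 26, these were 7.69% higher and 7.69% lower in YAP-WT, 0% and 23.1% in YAP-S94A, and 7.69% and 11.5% in YAP-W1W2, close to all genes for the higher ones in YAP-WT and YAP-W1W2. The glypican GPC6 read 268 in YAP-WT, 262 in YAP-S94A, 83.3 in YAP-W1W2 and 1078 in vector, and the betaglycan gene TGFBR3, a TGF-beta co-receptor, read 1923 in YAP-WT, 516 in YAP-S94A, 374 in YAP-W1W2 and 3004 in vector. GPC6 and TGFBR3, like DCN, were highest in vector and lowest in YAP-W1W2. SDC2, another syndecan, read 290.0 in YAP-WT, 115 in YAP-S94A, 140.3 in YAP-W1W2 and 367 in vector. Among 35 enzymes that build or edit glycosaminoglycan chains, 7 were higher and 1 lower for YAP-WT against vector, 3 and 2 in YAP-S94A, and 5 and 3 in YAP-W1W2. As shares of the 35, these were 20.0% higher and 2.86% lower in YAP-WT, 8.57% and 5.71% in YAP-S94A, and 14.3% and 8.57% in YAP-W1W2, close to all genes in YAP-S94A. The chondroitin sulfotransferase CHST11 was at least 4.50-fold higher in YAP-WT and CHST3 2.94-fold higher, whereas the heparan sulfate sulfatase SULF2 was 3.07-fold lower in YAP-WT, 4.50-fold lower in YAP-S94A and 11.0-fold lower in YAP-W1W2. The hyaluronan synthase HAS3 was 4.06-fold higher in YAP-S94A than in YAP-WT. In that comparison 6 of the 35 enzymes were lower (17.1%, all genes 4.52%) and 1 higher (2.86%, all genes 3.84%). The share of higher ones was thus close to all genes.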

How the data were processed

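Total RNA of 4 MCF10A cultures was labelled with biotin and measured on Affymetrix arrays, 1 per group, per the labels' protocols. The authors deposited 1 intensity per probe set and array, on a linear scale. The submitters' processing notes name GCOS, the Affymetrix operating software; the sources used here give neither its version, nor its scaling target, nor a genome build. Trimmed means (2% at each end) lay between 458.4 and 503.3, within 10% of each other, so the values were used as deposited. Of 54675 probe sets, 62 were Affymetrix controls and were left out, and 41091 of the rest had 1 gene symbol in the platform annotation. Of those in the annotation, 41043 matched an Entrez identifier of RefSeq (GRCh38.p14), and 0 symbols changed.

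Groups came from the sample titles. log2 folds were computed in Python 3.11.15 with pandas 2.3.3 after the floor of 72.9, for the brightest probe set of each gene. The number of arrays limits the precision: no p-value, standard error or interval could be had. Folds and counts were tested on simulated data, with changes well past 2-fold planted in bright genes. Such a run does not cover dim genes or calls near 2-fold. Any of the 40 names could be given with values, and in the other lists up to 4 genes past 2-fold, or the 2 largest differences where none passed; SDC2, GPC6 and other genes named there fall under this rule. The members and lists were chosen with earlier results of these data known. Alternatives were another floor or none, other probe sets per gene, median centring, quantile normalization and a filter on dim genes.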

Additional observations from a re-analysis of the deposited data

Results flagged for a closer look

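FN1 and FBN1 differed in direction between YAP forms, each against the same vector array. The log2 fold of FN1 was 1.35 in YAP-WT and 1.16 in YAP-W1W2 but −1.09 in YAP-S94A. That of FBN1 was 1.53 in YAP-WT and −1.65 in YAP-S94A. With 1 array per group these differences were not tested.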

How the results depend on the processing

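With 1 array per group no array could be left out in turn. The 12 counts of genes past 2-fold and the 6 medians were recomputed under 7 alternatives. Under median centring, the filter on dim genes and the floor at the 20th percentile (23.8), every count of the 39 genes stayed within 1.5 times the reported one; the lower floor took the median for YAP-S94A against vector to −0.37. With no floor, 13 genes rather than 8 were lower in YAP-S94A than in vector and 5 rather than 3 higher in YAP-S94A than in YAP-WT; dim genes then count. With the mean over probe sets, 2 rather than 4 were lower in YAP-WT than in vector, 0 rather than 3 higher in YAP-S94A than in YAP-WT, 1 rather than 2 higher in YAP-W1W2 than in YAP-WT, and 1 rather than 2 lower in YAP-W1W2 than in YAP-S94A. Quantile normalization also gave 1 for the last. Among all 19775 genes, the 12 counts past 2-fold ran over 1512 to 2808 with the lower floor, 1956 to 3365 with none and 388 to 1050 with the mean over probe sets, against 678 to 1674 as reported; without a floor the median of all genes moved to 0.12 for YAP-S94A against vector. Probe sets without the _s_at, _x_at or _a_at suffix covered 29 genes. There 1 gene was higher in YAP-S94A than in YAP-WT, 1 was higher in YAP-W1W2 than in YAP-WT, 5 rather than 8 were higher in YAP-W1W2 than in YAP-S94A, 8 rather than 12 were lower in YAP-S94A than in YAP-WT, as many as the 8 higher for YAP-WT against vector, and the median for YAP-S94A against YAP-WT was 0. In the same setting FN1 turned to 0.15 (log2) for YAP-S94A against vector and 0.073 against YAP-WT, from a probe set between 56.3 and 108 on the arrays, and LTBP3 turned to −1.03 for YAP-S94A against vector. No other called log2 fold changed sign under the 7 alternatives. The calls for LTBP2 and LTBP3 in YAP-S94A against vector, just past 2-fold, were lost under median centring. More calls of single genes turned on the choice of probe set than the counts show. With the mean over probe sets, 18 calls were lost and 5 gained among 234 log2 folds. Probe sets without those suffixes lost 18 and gained 7 among 174. The cause of the changes with the choice of probe set was not tested. Nearness to the floor limits what can be read for NID1, NID2, THBS2, BGN, LUM and MFAP2.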
